A study of Homo sapiens with 8 samples.

Results

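The genes described here encode enzymes that write or erase DNA methylation, together with the ASXL chromatin regulators. The enzymes are the DNA methyltransferases DNMT1, DNMT3A and DNMT3B and the dioxygenases TET1, TET2 and TET3. The regulators are the polycomb-associated proteins ASXL1 and ASXL2. They were taken by symbol, and all 8 were present among the 11530 genes of the deposited table and passed the filter on low values. RNA was measured in MonoMac 6, an established human line of acute monocytic leukaemia. In 4 libraries the cells had received human APRIL, the TNF family cytokine encoded by TNFSF13, at 100 ng/mL for 24 h. The other 4 libraries were controls without APRIL. The treated cells were in RPMI free of serum, and the serum content of the control medium is not given, so if the media differed in serum, APRIL and serum cannot be told apart. Both media held baseline cytokines that the series text does not name. Whether libraries of a group came from separate cultures is not stated, so a p-value here covers library-to-library spread only, some or all of which may be technical. In RNA of bulk cells, fewer expressing cells and less RNA in each cell cannot be told apart.

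DNMT1 copies existing methyl marks onto newly made DNA strands, while DNMT3A and DNMT3B set marks at new sites. The TET enzymes oxidise the methyl group with iron and 2-oxoglutarate, which opens a route to its removal. ASXL1 and ASXL2 bind the deubiquitinase BAP1, which takes ubiquitin off a core histone and so opposes polycomb repressive complex 1. DNMT3A, TET2 and ASXL1 are among the genes most often mutated in clonal haematopoiesis and myeloid neoplasms.

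A value below is the authors' log2 expression value, and a change is APRIL minus control on that log2 scale with its limma standard error (4 libraries per group). The columns of the table carry a group name and no replicate number, so each library is named by its group and its place in the table, as in APRIL column 3 or control column 1, and values are listed in column order. No gene passed limma's Benjamini-Hochberg threshold of 0.05 in either direction (0% of 11257 tested genes higher and 0% lower, smallest adjusted p = 0.3999), while 1344 genes, or 11.9%, were at an unadjusted p below 0.05 (6.25% with a positive and 5.69% with a negative change). The 8 genes of interest had 0 passing and 3 at an unadjusted p under 0.05, all 3 lower with APRIL, against the 5.69% of all tested genes. These 3 were ASXL2, TET3 and TET2. By the p-values that the authors deposited, from a test not identified here, TET3 alone of the 8 genes was under 0.05. A negative change was seen in 7 of the 8, against 50.7% of all tested genes, with a median change of -0.22 against -0.005 over all. Without APRIL column 3 that median was -0.06, and 2 of the 8 (TET3 and ASXL2) were at an unadjusted p under 0.05, both lower, against 4.50% of all genes lower and 9.28% in either direction. After removal of the trend that each library showed with length and GC content of the transcripts, the median was -0.11.

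The sequences just upstream of TET3, TET2 and ASXL2 are shown because these were the 3 genes lowest with APRIL. Each is the 100 bases before the RefSeq transcript start listed first for the gene (GRCh38.p14), 5′ to 3′ on the strand of the gene, with capitals marking CACGTG, the palindromic E-box bound by MYC, MAX and USF factors.
TET3, chr2:73984810-73984909, plus strand: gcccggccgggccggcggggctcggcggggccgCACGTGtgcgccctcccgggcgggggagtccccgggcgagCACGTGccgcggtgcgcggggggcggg
TET2, chr4:105145775-105145874, plus strand: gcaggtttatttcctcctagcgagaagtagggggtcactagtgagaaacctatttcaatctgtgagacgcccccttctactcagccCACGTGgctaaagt
ASXL2, chr2:25878488-25878587, minus strand: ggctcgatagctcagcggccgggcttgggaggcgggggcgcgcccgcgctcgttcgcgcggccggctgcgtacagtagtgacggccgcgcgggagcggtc
TET3 had 2 matches in these bases, TET2 had 1 and ASXL2 had 0. In the 250 bases before a start, CACGTG on either strand was found at 4 of the 20 listed starts of the 8 genes (1 in TET2, 1 in TET3 and 2 neighbouring starts of DNMT3A that hold the same match) and at 6.34% of 35116 starts of all genes. The E2F letters TTTCGCGC, the cyclic AMP response letters TGACGTCA and the longer NF-kB and NRF1 motifs, each searched on both strands, had no match at these 20 starts and were found at 0.439%, 1.65%, 1.73% and 1.03% of all starts. The same 250 bases held 37 CG dinucleotides at this TET3 start, 36 at this ASXL2 start and 10 at this TET2 start. The median over all starts was 11. At the other listed start of each gene the number was 27 for TET3, 1 for ASXL2 and 34 for TET2, with no CACGTG. A match or its absence describes these letters only.

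APRIL column 3 stood apart for this group of genes. It was the lowest of the 8 libraries for 7 of the 8 genes, the exception being TET1, whose lowest library was control column 3. Averaged over the 8 genes, it lay 0.59 log2 units below the mean of all libraries, where the other libraries lay between -0.10 and 0.19. It was also the shallowest library, with 907686 reads recovered from the values, where the other APRIL libraries had 2776381 to 5201940 and the control libraries 1344626 to 2888193. The change of each of the 8 genes is therefore given with and without it, and the part of its depth in these values was not tested. The line itself was recognisable: 17 of 18 markers of monocytic leukaemia cells were in the table, among them CD14, CD33, CSF1R, LYZ, HOXA9 and MEIS1, while CD68 was absent from it. Summed over the 14 markers with recovered reads they took 1340 to 1530 CPM of the recovered reads with APRIL and 1130 to 1410 in control. Of other cell types, 3 of 10 T and NK cell markers and 5 of 9 B and plasma cell markers were in the table. Reads were recovered for 2 of the 3 T and NK cell markers, which summed to 8.81 to 14 CPM with APRIL and 7.44 to 13.5 in control. This sum leaves 1 marker out. Deposited means with APRIL and in control were 11.30 and 10.84 for NKG7, 4.14 and 3.32 for TRAC, and 2.94 and 2.94 for CD8A. That scale does not compare levels between genes. The B and plasma cell markers summed to 68.3 to 98.9 CPM with APRIL and 81.8 to 94.2 in control. The table listed 0 of 10 erythroid and 0 of 10 stromal, epithelial and endothelial markers.

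**Figure D1:**
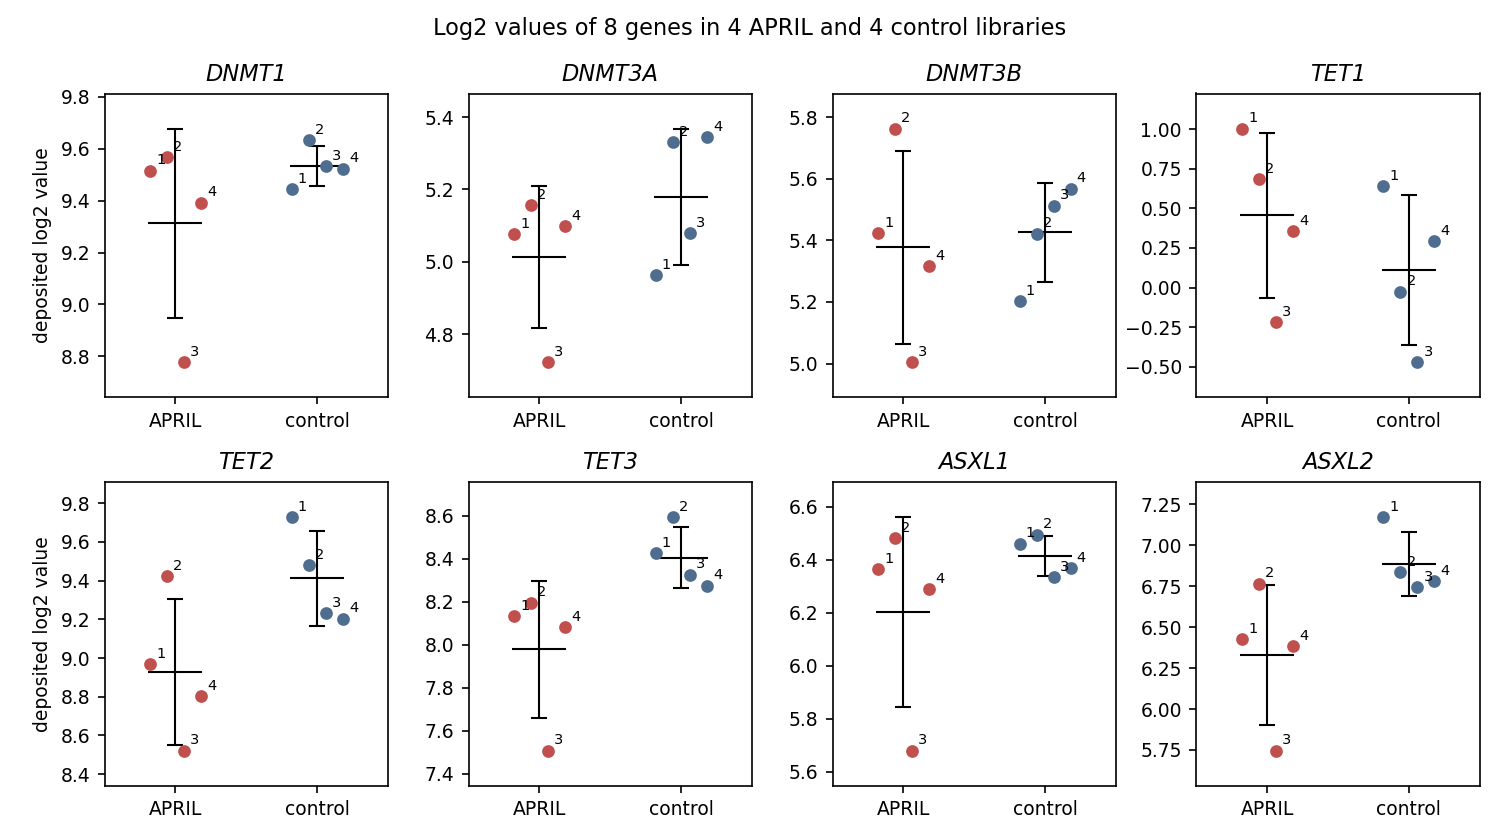
Deposited log2 values (y axis) of the 8 genes in the 4 APRIL and the 4 control libraries (x axis), with 1 point per library numbered by its column, the mean as a horizontal line and bars of 1 SD. APRIL column 3 is the lowest point in 7 of the 8 panels, and the groups stand wholly apart for TET3 alone.

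The maintenance enzyme DNMT1 showed no difference beyond the spread between libraries. It read 9.52, 9.57, 8.78 and 9.39 with APRIL and 9.44, 9.63, 9.53 and 9.52 in control. Only APRIL columns 3 and 4 lay below every control library. The change was -0.22 ± 0.17 (limma, adjusted p = 0.5002, 95% interval -0.60 to 0.16), and it was -0.04 without APRIL column 3, with an interval of -0.24 to 0.16. DNMT1 was the best measured of the 8 genes, with 449 to 4941 reads per library under APRIL and 1320 to 2648 in control. Of its 9796 exon bases, 83 are shared with S1PR2 on the same strand. Read counting alone gives its change a standard error of 0.027, far below the 0.17 found between libraries.

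The de novo enzymes were likewise within the spread. DNMT3A read 5.08, 5.16, 4.72 and 5.10 with APRIL and 4.96, 5.33, 5.08 and 5.34 in control, a change of -0.17 ± 0.15 (limma, adjusted p = 0.5597, 95% interval -0.50 to 0.17), which was -0.07 without APRIL column 3. The groups overlapped, with control column 1 below 3 of the 4 APRIL libraries. DNMT3B read 5.42, 5.76, 5.005 and 5.32 with APRIL and 5.20, 5.42, 5.51 and 5.57 in control. The highest and the lowest of these 8 values were both APRIL libraries. Its change of -0.05 ± 0.17 (limma, adjusted p = 0.8896, 95% interval -0.44 to 0.34) turned to +0.075 without APRIL column 3. DNMT3A had 53 to 459 reads per library with APRIL and 132 to 289 in control, and DNMT3B 20 to 220 with APRIL and 44 to 106 in control. For neither enzyme do the intervals reach as far as a halving or a doubling, which is 1 log2 unit.

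Among the dioxygenases TET3 was the clearest, with every APRIL library below every control library. TET3 read 8.13, 8.20, 7.51 and 8.08 with APRIL and 8.43, 8.60, 8.33 and 8.28 in control. Of all tested genes, 4.19% lay wholly below in this way and 3.62% wholly above. The change was -0.43 ± 0.17, a 0.744-fold level, at an unadjusted p of 0.0272 and an adjusted p of 0.3999 in limma. An exact two-sided permutation test gave p = 0.0286, the smallest that the 70 relabelings of 8 libraries allow. Any gene whose groups do not overlap has this p, so it restates the separation and adds no support. Without APRIL column 3 the change was -0.27 (unadjusted p = 0.0271 in limma, 95% interval -0.50 to -0.04), while without control column 2 it was -0.36 (unadjusted p = 0.0779) and without control column 1 it was -0.42 (unadjusted p = 0.052). TET3 had 99 to 1019 reads per library with APRIL and 343 to 595 in control, so that read counting accounts for a standard error of 0.056.

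TET2, which acts without the CXXC DNA-binding domain that TET1 and TET3 carry, had a change of similar size with overlapping groups. It read 8.97, 9.42, 8.52 and 8.80 with APRIL and 9.73, 9.48, 9.23 and 9.20 in control. APRIL column 2 exceeded control columns 3 and 4, and the other APRIL libraries lay below every control. The change was -0.48 ± 0.20, a 0.716-fold level (unadjusted p = 0.0344 and adjusted p = 0.3999 in limma), and -0.35 without APRIL column 3 (unadjusted p = 0.0718). Its exact two-sided permutation p was 0.0857. Of the settings that only left libraries out, the smallest change came without both APRIL column 3 and control column 1, at -0.24.

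TET1 was barely expressed, and its values ran the other way. It had 27, 41, 3 and 19 reads with APRIL and 15, 6, 6 and 17 reads in control. The log2 values were 1.00, 0.68, -0.22 and 0.35 with APRIL and 0.64, -0.02, -0.47 and 0.29 in control, so the groups overlapped. The change was +0.35 ± 0.32 (limma, adjusted p = 0.5649, 95% interval -0.37 to 1.06) and +0.57 without APRIL column 3 (unadjusted p = 0.0782). Read counting alone gives a standard error of 0.328, as large as the one found between libraries. Without APRIL column 1 the change was +0.16, and without control column 3 it was +0.15. With library quality weights it was +0.83, at an unadjusted p of 0.0042 in limma. Those weights were 5.46 for APRIL column 1, the highest TET1 value, and 0.117 for APRIL column 3, the lowest with APRIL. Control column 1, the highest TET1 value in control, had a weight of 0.316. Without weights, leaving out APRIL column 3 and control column 1 gave +0.75 (unadjusted p = 0.0227 in limma). The library of most weight had 27 reads of TET1. The weighted fit was not run without it, so the part of any single library in that result was not tested.

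ASXL2 lay further below control than its paralog ASXL1, a difference taken up within libraries in the paragraph on family pairs. ASXL2 read 6.43, 6.77, 5.75 and 6.38 with APRIL and 7.17, 6.84, 6.74 and 6.78 in control. APRIL column 2 alone reached into the control range, just above control column 3. The change was -0.55 ± 0.21, a 0.681-fold level (unadjusted p = 0.0238 and adjusted p = 0.3999 in limma, exact two-sided permutation p = 0.0571), and -0.36 without APRIL column 3 (unadjusted p = 0.0318 in limma). ASXL1 read 6.36, 6.48, 5.68 and 6.29 with APRIL and 6.46, 6.49, 6.34 and 6.37 in control, and its groups overlapped. Its change was -0.21 ± 0.18 (limma, adjusted p = 0.5232), or -0.04 without APRIL column 3, with a 95% interval of -0.27 to 0.19. ASXL1 had 92 to 1024 reads per library with APRIL and 264 to 524 in control, and ASXL2 51 to 664 with APRIL and 178 to 371 in control.

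**Figure D2:**
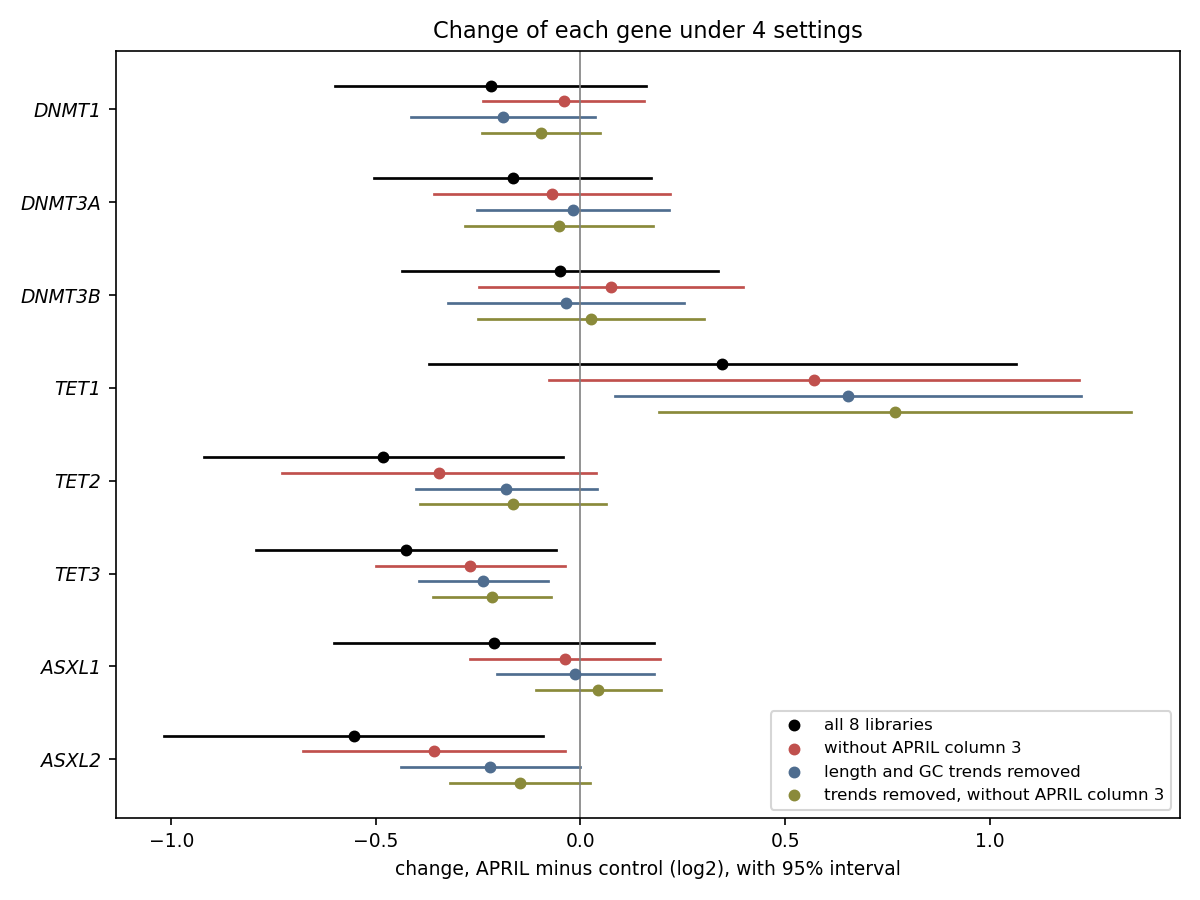
Change of each gene, APRIL minus control on the log2 scale (x axis), with its 95% interval from limma, for all 8 libraries, without APRIL column 3, with length and GC trends removed, and with both. The intervals of TET3 stay below 0 in all 4 settings, those of DNMT1, DNMT3A, DNMT3B and ASXL1 include 0 in all 4, and the estimates of TET1 lie above 0 throughout.

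Differences taken within a library cancel what moves both genes of a pair alike. Of the 7 pairs within the DNMT, TET and ASXL families, 3 did not overlap between the groups, where 7.04% of all pairs of tested genes do not. ASXL2 minus ASXL1 was 0.06, 0.29, 0.07 and 0.09 with APRIL and 0.71, 0.34, 0.41 and 0.41 in control. Every APRIL library lay below every control, APRIL column 3 within the range of its group, and the mean difference was 0.13 ± 0.11 with APRIL and 0.47 ± 0.17 in control (SD, n = 4 each). This contrast of -0.34 was -0.32 without APRIL column 3 and -0.21 with the length and GC trends removed. The other pairs were TET1 minus TET2, higher with APRIL by 0.83, and TET1 minus TET3, higher by 0.77, both of which rest on the few TET1 reads. TET2 minus TET3 averaged 0.95 ± 0.22 with APRIL and 1.00 ± 0.20 in control (SD, n = 4 each), and the DNMT pairs overlapped with contrasts of -0.17 to -0.05. The pairs share genes and were set up after the data were examined, so they are not separate observations and carry no test.

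**Figure D3:**
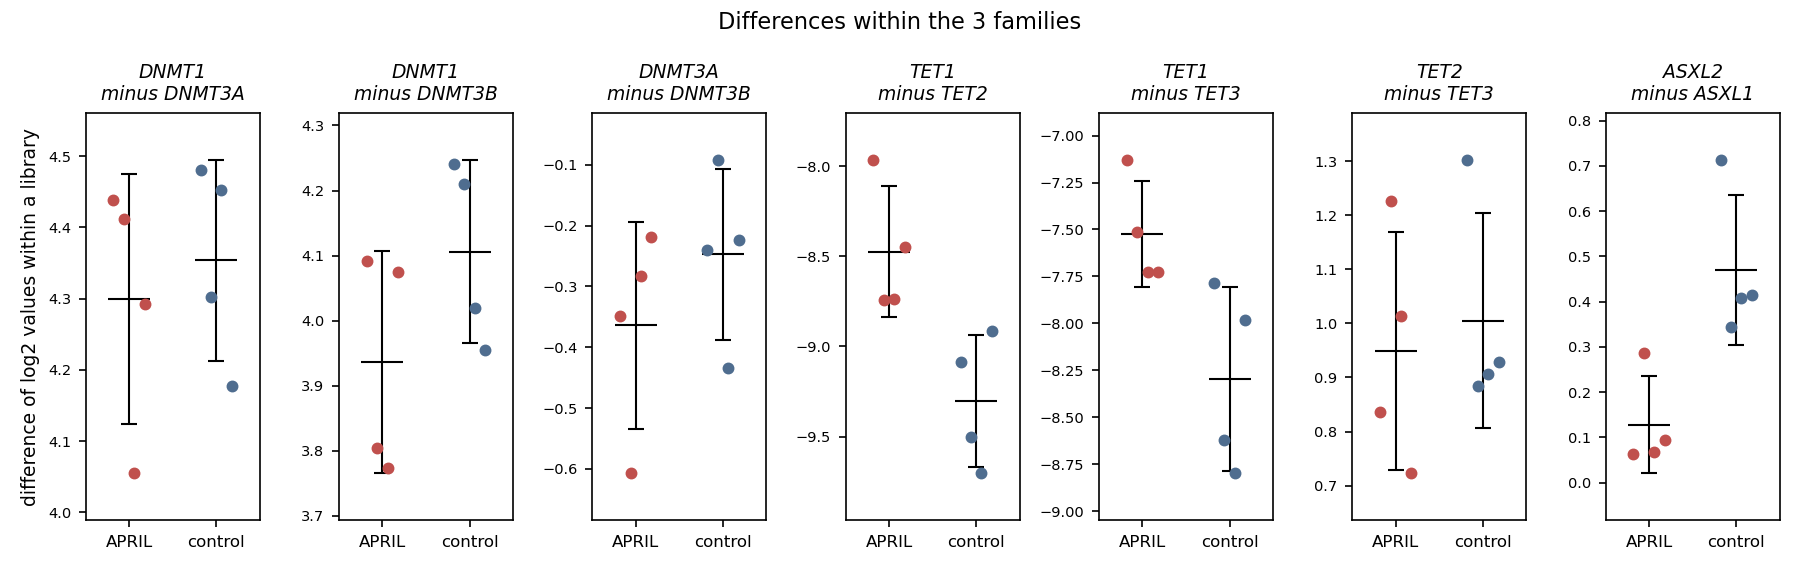
Difference of log2 values of 2 genes of a family within each library (y axis), for 4 APRIL and 4 control libraries (x axis), with the mean and bars of 1 SD. The groups stand apart for ASXL2 minus ASXL1, TET1 minus TET2 and TET1 minus TET3, and overlap for the other 4 pairs.

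These genes have long transcripts, and length moved with the change across the whole table. The longest GENCODE transcript was between 8056 bases (ASXL1) and 12878 bases (ASXL2) for 6 of the 8 genes, which put them in the top decile of genes by length, where the median change was -0.26, or -0.14 without APRIL column 3. DNMT1 at 5408 bases and DNMT3B at 4336 bases fell in deciles with median changes of -0.13 and -0.07. Against its own decile ASXL2 was low, with 9.45% of genes lower still, followed by TET2 with 15%, TET3 with 23.7% and DNMT1 with 33.9%. Without APRIL column 3 these shares were 9.82% for ASXL2, 12% for TET2 and 25.1% for TET3, while DNMT1 crossed the median of its decile, with 52.6% lower. DNMT3A and ASXL1 lay above the median of the same decile, with 67% and 59.1% of genes lower (67% and 71.5% without APRIL column 3), and TET1 lay near the top, with 97.2% lower. The part of length in the result of any single gene was not tested beyond the fit that follows.

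In the fit with the length and GC trends of every library removed, TET3 was again wholly below control, as were 3.04% of genes in that fit. Its adjusted values were 8.12, 8.08, 8.01 and 8.09 with APRIL and 8.35, 8.39, 8.25 and 8.26 in control, and APRIL column 3 no longer stood far from its group. The change was -0.24, with an unadjusted p of 0.0078 in limma and an adjusted p of 0.5744 (0.2177 to 0.6538 over the alternatives). ASXL2 was at -0.22 (unadjusted p = 0.0495 in limma), TET2 at -0.18 (unadjusted p = 0.0984), DNMT1 at -0.19 (unadjusted p = 0.0901), DNMT3A at -0.02, DNMT3B at -0.04 and ASXL1 at -0.01. TET1 was at +0.65 (unadjusted p = 0.0290 in limma). In this fit 3 of the 8 genes were at an unadjusted p under 0.05, of which TET3 and ASXL2 were lower and TET1 higher, against 8.04% of the 10791 genes it covered (3.54% lower). No gene of the 8 lay wholly above control in it, as 3.33% of genes did.

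**Figure D4:**
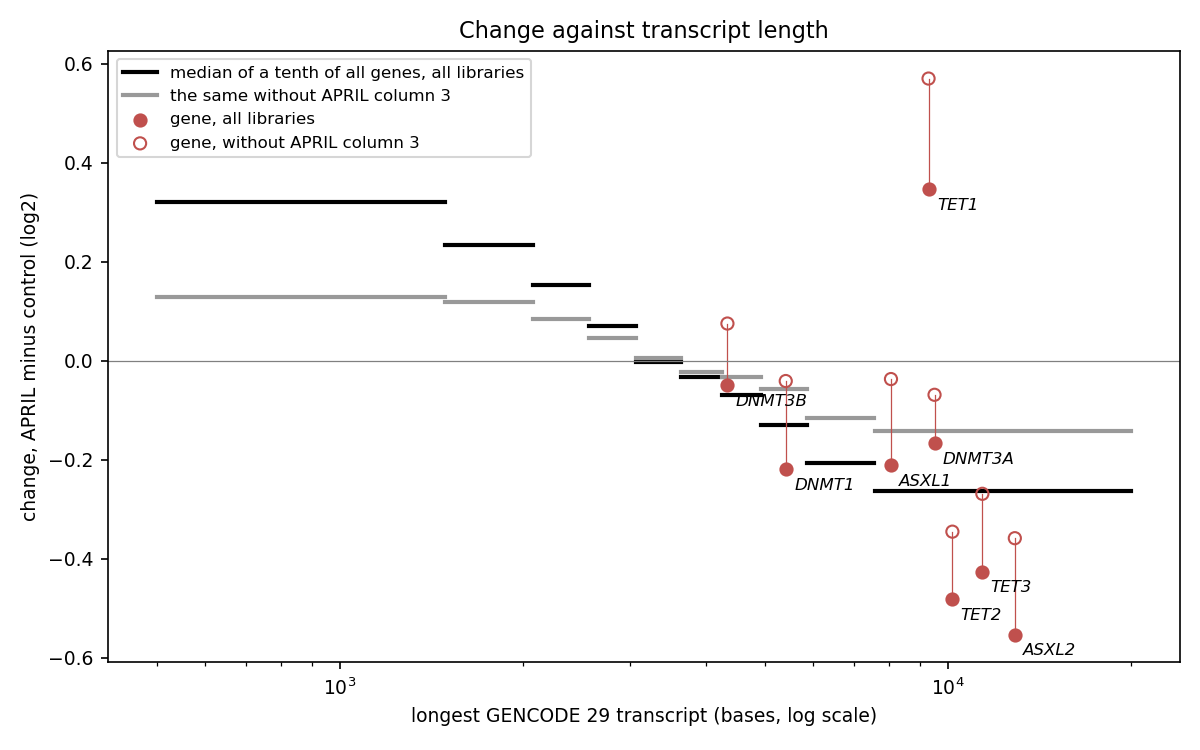
Change, APRIL minus control on the log2 scale (y axis), against the longest GENCODE transcript in bases (log x axis). Bars are medians of length deciles of all genes (black with all libraries, grey without APRIL column 3, shortened at both ends of the axis), and points are the 8 genes (filled with all libraries, open without APRIL column 3). The black medians are 0.32 in the shortest decile and -0.26 in the longest, and ASXL2, TET2 and TET3 lie below the bar of their decile in both settings, DNMT1 with all libraries only.

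Levels of different genes cannot be compared in the deposited values, because the divisor recovered for a gene did not follow its length: it was 136 for TET2 and 3535 for TET1, though their transcripts are of similar length. The order of levels was instead taken from RPKM computed from the recovered reads, the library's recovered total and the length of the longest transcript. On that scale DNMT1 was at 147 ± 38.3 with APRIL and 170 ± 8.72 in control (SD, n = 4 each), above every other gene of the group. ASXL1 followed at 20.2 ± 5.23 with APRIL and 23.2 ± 1.16 in control, and TET3 at 14.7 ± 3.48 with APRIL and 19.8 ± 1.92 in control. Next came TET2 (9.2 ± 2.81 with APRIL, 12.8 ± 2.24 in control), ASXL2 (7.4 ± 2.29 with APRIL, 10.7 ± 1.56 in control), DNMT3A (8.25 ± 1.42 with APRIL, 9.41 ± 1.21 in control) and DNMT3B (7.39 ± 1.92 with APRIL, 7.66 ± 0.839 in control). With APRIL the neighbours among these 4 lay within an SD of each other, while in control DNMT3A was above DNMT3B in each of the 4 libraries. TET1 came last at 0.728 ± 0.294 with APRIL and 0.568 ± 0.194 in control. Reads of all the gene's transcripts were set over the longest one, so these levels are approximate. What the divisor stands for is not known, nor whether reads were counted over the whole transcript. In the deposited values TET2 averaged 8.93 with APRIL and 9.41 in control, near DNMT1 at 9.31 and 9.53. The order of levels therefore depends on the length used.

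Correlations were taken over the 8 libraries with the length and GC trends left in. DNMT1 and ASXL1 had the highest of any pair of the 8 genes, at Pearson's r = 0.972, which was 0.624 without APRIL column 3. That library was the outermost point for every gene of the 8 but TET1. TET2 and ASXL2 had r = 0.958, and 0.959 without it. TET2 and ASXL1 had r = 0.819 with it and 0.848 without it, and TET2 and DNMT3A had 0.487 with it and -0.042 without it. TET1 did not exceed r = 0.434 with any of the other 7. The genes of the whole table with the most similar pattern were GOLGB1, NCOA2 and PHACTR4 for TET2 (r = 0.994 to 0.988), AGO4, BAZ2A and SCD for TET3 (0.988 to 0.986), and UBR3 and HSPH1 for ASXL2 (0.994 and 0.992). For DNMT1 they were PI4KA, TLN1 and CIT (0.997 to 0.994), for ASXL1 TMEM131, IPO9 and NDUFS1 (0.994 to 0.992), for DNMT3A AKAP1, SLC36A1 and CYP51A1 (0.976 to 0.958), for DNMT3B TEX261, PPP1R15A and NBPF12 (0.956 to 0.943) and for TET1 C9orf85, IMMT and PDLIM5 (0.937 to 0.928). These correlations describe 8 points, picked as the highest over all genes of the table, and carry no test.

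The proteins that work with these enzymes were read in 7 lists, and in none did a gene pass limma's adjusted threshold. They held 118 distinct tested genes, of which 16, or 13.6%, were at an unadjusted p under 0.05, against 11.9% of all tested genes. The number was 7, or 5.93%, without APRIL column 3, against 9.28% of all. Of 15 tested partners and regulators of the DNA methyltransferases, 10 had a negative and 5 a positive change (median -0.12, or -0.03 both without APRIL column 3 and with the length and GC trends removed). UHRF1, which brings DNMT1 to half-methylated DNA, was at -0.12 ± 0.15, and PCNA, the replication clamp that holds DNMT1, at +0.23 ± 0.15. UHRF1 was at +0.005 and PCNA at +0.09 without APRIL column 3. The corepressor TRIM28 was the 1 gene of this list at an unadjusted p under 0.05 in limma, at +0.29 ± 0.13, which was 0.003 with the length and GC trends removed and +0.24 without APRIL column 3 (unadjusted p = 0.0723). Of the 8 genes listed as readers of methylated DNA or as family members of them, 7 were negative. The list median was -0.17, or +0.006 with the trends removed and -0.06 without APRIL column 3. MBD4, a reader that is also a thymine glycosylase, stood at 6.06 with APRIL and 6.42 in control, wholly below, with a change of -0.36 ± 0.13 (unadjusted p = 0.0173 and adjusted p = 0.3999 in limma) that was -0.34 with the trends removed and -0.30 without APRIL column 3. MBD3 was the 1 positive gene of this list, at +0.50 ± 0.25 (+0.36 without APRIL column 3, +0.39 with the trends removed). It is a subunit of the NuRD complex, belongs to the MBD family and is not taken as a reader here.

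Of 15 tested TET partners and repair genes, 8 were negative and 7 positive (median -0.03, or +0.03 without APRIL column 3). QSER1, which shields DNA from de novo methylation together with TET1, was the 1 gene at an unadjusted p under 0.05 in limma, at -0.45 ± 0.19, at -0.12 with the trends removed and at -0.45 without APRIL column 3 (unadjusted p = 0.0507). OGT, the glycosyltransferase that binds TET2 and TET3, was at -0.30 ± 0.15, and TDG, which cuts out oxidised cytosines, at +0.01 ± 0.16. OGT was at -0.17 and TDG at -0.11 without APRIL column 3. Of the 21 genes that supply S-adenosylmethionine and 2-oxoglutarate, 11 were negative and 10 positive (median -0.06, or +0.025 without APRIL column 3). AHCY, which clears the product that inhibits methyltransferases, was at +0.45 ± 0.19 with APRIL values wholly above control, as for 3.62% of all genes. Methionine synthase (MTR) was at -0.43 ± 0.19. They were the 2 genes of this list at an unadjusted p under 0.05 in limma, and with the trends removed they were at +0.26 and -0.15. In the fit without APRIL column 3 AHCY was at +0.28 (unadjusted p = 0.0652) and MTR at -0.26 (unadjusted p = 0.0686). IDH1 and IDH2, whose mutant forms inhibit the TET enzymes, were at -0.10 ± 0.12 and +0.33 ± 0.15. Without APRIL column 3 IDH1 was at -0.12 and IDH2 at +0.22, and with the trends removed they were at -0.09 and +0.18.

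Of 11 tested partners in the BAP1 complex, 9 were negative and 2 positive (median -0.14, or -0.06 with the trends removed and -0.009 without APRIL column 3), and the positive ones were BAP1 itself at +0.09 ± 0.15 and FOXK2 at +0.07 ± 0.12 (+0.18 and +0.13 without APRIL column 3). MBD5, a methyl-binding domain protein of that complex, was at -0.62 ± 0.25 and wholly below control, and the histone demethylase KDM1B at -0.37 ± 0.16, the 2 genes at an unadjusted p under 0.05 in limma. With the trends removed they were at -0.31 and -0.22, and without APRIL column 3 at -0.38 (unadjusted p = 0.0483) and -0.29 (unadjusted p = 0.0767). Of 32 tested polycomb genes, 20 were negative and 12 positive (median -0.14, or -0.06 with the trends removed and -0.03 without APRIL column 3). RYBP, PHC3 and MTF2 at -0.42 ± 0.16, -0.52 ± 0.22 and -0.35 ± 0.15, and RING1 at +0.37 ± 0.16, were the 4 at an unadjusted p under 0.05 in limma. With the trends removed RYBP, PHC3 and MTF2 were between -0.16 and -0.15 and RING1 was at -0.004. Without APRIL column 3 RYBP was at -0.39 and PHC3 at -0.30, while MTF2 at -0.23 (unadjusted p = 0.0757) and RING1 at +0.27 (unadjusted p = 0.0793) were no longer at that level. EZH2, the methyltransferase of polycomb repressive complex 2, was at -0.20 ± 0.12, and at -0.12 without APRIL column 3. Of 18 other chromatin and cohesin genes mutated in myeloid neoplasms, 17 were negative (median -0.35), with 5 at an unadjusted p under 0.05 in limma, all lower, against 5.69% of all genes. The methyltransferase SETD2 was at -0.54 ± 0.20, and at -0.26 with the trends removed. In this list 9 of 18 genes fell in that top decile of length, and its median was -0.15 with the trends removed and -0.19 without APRIL column 3.

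**Figure D5:**
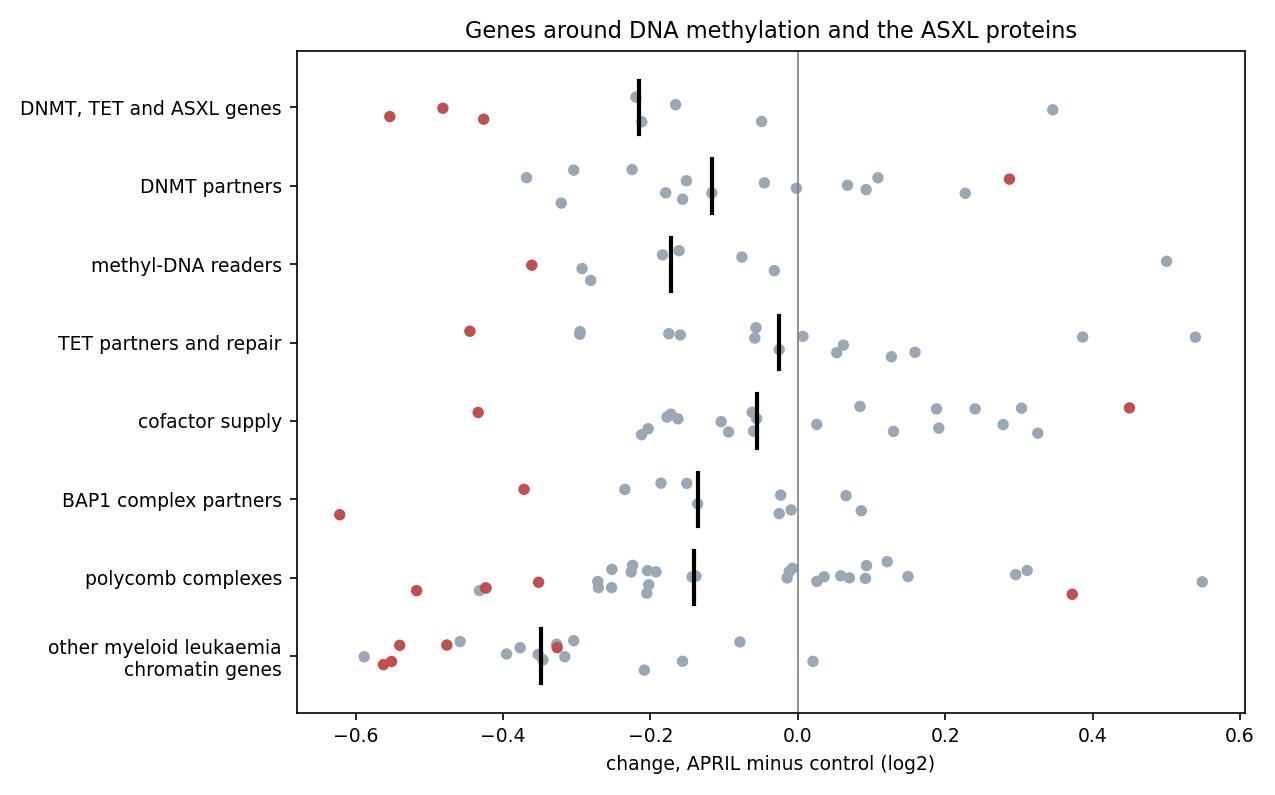
Change of each gene, APRIL minus control on the log2 scale (x axis), in the 8 lists (y axis). Points are genes, red where the unadjusted p in limma was under 0.05, and black bars are list medians. The medians run from -0.35 for the other myeloid leukaemia chromatin genes to -0.03 for the TET partners and repair genes.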

How the data were processed

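Libraries were made with the TruSeq RNA v2 kit, which does not mark strand, per the labels' protocols, and the submitters' processing notes name bcl2fastq, TopHat2 2.0.13 and build hg19. The sources used here do not give the counter, annotation or gene filter. The authors deposited 1 table of log2 values scaled by a TMM factor, with a p-value and a linear fold, per the file headers. Columns headed APRIL were set against columns headed Control.

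A gene was tested if its linear value reached 1 in 4 or more of the libraries, with limma 3.58.1 in R 4.3.3 (group as the only term, intensity trend, robust, two-sided), adjusted by Benjamini-Hochberg over 11257 genes. The fit was tested on simulated data. Whole reads were recovered for 11106 of 11530 genes (96.32%) as log2 of reads plus 0.5 over 1 whole divisor and a library constant, and for 1 of 500 genes with moved constants. Recovered reads cover those genes only, and counting errors cover counting alone. Transcript length and GC content came from GENCODE (10584 genes by symbol, 450 by an older symbol), and trends were removed with splines of 4 degrees of freedom. DNMT1 shares 83 of 9796 exon bases with S1PR2.

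The genes and lists were chosen with earlier results of these data known. The named genes are all 8 genes of interest, up to 5 genes at an unadjusted p under 0.05 (or the smallest p) of each list, and the 3 most correlated genes, of which 1 is not reported here. A few others (UHRF1, PCNA, MBD3, OGT, TDG, IDH1, IDH2, BAP1, FOXK2, EZH2, STAG1) were chosen after their values were seen. Symbols turned into dates (11) were tested and not named. Python 3.11.15 was used for the rest.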

Additional observations from a re-analysis of the deposited data

Results flagged for a closer look

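TET3 in APRIL column 3, at a log2 value of 7.51, lay far from the other 3 APRIL libraries (8.08 to 8.20): the gap was 0.833 of the range of the group, just over Dixon's 95% critical value. It was the 1 flag among 16 groups of 4 values, and chance flags about 1 in 20. With length and GC trends removed this library was at 8.01.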

How the results depend on the processing

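No setting called any of the 8 genes at an adjusted p under 0.05. Over all genes limma called 4 with library quality weights and 1 with voom on the recovered reads with quality weights, against 0 otherwise. Genes of interest at an unadjusted p under 0.05 numbered 3, with a range of 0 to 3 over the single libraries left out, 0 without control column 1 and 1 without control column 2, 1 by the exact permutation test and 4 with either quality-weight fit. Genes of the 7 lists at that level numbered 16, with a range of 2 (without control column 1) to 23 (without APRIL column 2) over the single libraries left out, 9 with the length and GC trends removed, 4 without APRIL column 3 and control column 1, and 6 with the trends removed and APRIL column 3 left out, an alternative chosen after seeing the data. Those 9 were 7.63% of the 118 list genes, below the 8.04% of all genes in the same fit. A share of all genes is also given above for leaving out APRIL column 3, and for no other alternative. Counts in the remaining alternatives, among them the 4 genes of interest with quality weights, therefore cannot be set against a background. DNMT3B turned to +0.02 with voom, to +0.0006 without APRIL column 3 and control column 1 and to +0.0262 with the trends removed and APRIL column 3 left out, and ran from -0.18 to 0.075 when each library was left out. ASXL1 turned to +0.0438 with the trends removed and APRIL column 3 left out. For these the cause was not tested. TET1 did not pass the stricter filter. No paired analysis was possible because the columns carry no replicate number. Depth limits TET1 most, with 3 reads in APRIL column 3.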

Other observations

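The list of other chromatin and cohesin genes mutated in myeloid neoplasms held 5 genes of cohesin, the ring that holds sister chromatids together, picked here after their values were seen. SMC3 stood at 10.71 ± 0.43 with APRIL and 11.27 ± 0.27 in control (SD, n = 4 each), a change of -0.56 ± 0.22. STAG2 was at -0.55 ± 0.21, SMC1A at -0.48 ± 0.21 and RAD21 at -0.33 ± 0.13, each with all APRIL values below control, as for 4.19% of all genes, and STAG1 at -0.32 ± 0.21. None passed limma's adjusted threshold (adjusted p = 0.3999 for SMC3, STAG2, SMC1A and RAD21 and 0.4592 for STAG1). SMC3, STAG2, SMC1A and RAD21 were at an unadjusted p under 0.05, against 5.69% of all genes lower at that level. With the length and GC trends removed the changes were -0.38 for SMC3, -0.28 for STAG2, -0.22 for SMC1A, -0.18 for RAD21 and -0.06 for STAG1. Without APRIL column 3 they were -0.37 for SMC3, -0.37 for STAG2, -0.25 for SMC1A, -0.26 for RAD21 and -0.16 for STAG1, with SMC3 and STAG2 still at an unadjusted p under 0.05. The part of transcript length in these values was not tested beyond that fit.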
